A study of Mus musculus with 28 samples.

Results

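The genes described here belong to the cytokinesis and midbody machinery: *Anln*, *Ect2*, *Racgap1*, *Kif20a*, *Kif20b*, *Kif23*, *Prc1*, *Cit*, *Aurkb* and *Cep55*. They were followed through reprogramming of mouse embryonic fibroblasts (MEFs). They were chosen by name from the RNA-seq table, with earlier results of these data known. They are 10 of the 50600 genes that the table lists, and all 10 passed the filter of a mean value of at least 1. The study asked how SB203580, an inhibitor of the p38 MAP kinases (p38i), acts on MEFs and on their conversion to induced pluripotent cells, and the comparisons here ask what it does to the transcripts of these genes. The table holds 28 libraries, 2 for each of 14 groups. Wild-type MEFs were sequenced untreated and after treatment with SB203580. The other 12 groups were collected on days 1, 3, 5 and 7 of induction with retroviral Oct4, Klf4 and Sox2 (OKS) in 3 conditions: DMSO, which the labels call control, p38i, in which the inhibitor was present during induction, and pre-p38i, in which it was given before induction. According to the study's methods the MEFs were a primary mixed population from mid-gestation embryos of a cross that carries an Oct4-GFP reporter, and every induced group carried the same retroviral factors. Neither the labels nor the methods say that the 2 libraries of a group came from separate cultures, so p-values measure the spread between these libraries, which may be technical.

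Cytokinesis splits the cell after the chromosomes have parted. The chromosomal passenger complex, with the kinase Aurora B (*Aurkb*), moves from the centromeres to the central spindle, a bundle of antiparallel microtubules built by the crosslinker *Prc1* and by the centralspindlin complex of the kinesin *Kif23* (MKLP1) and *Racgap1*. Centralspindlin recruits the exchange factor *Ect2*, which activates RhoA at the equator, and RhoA drives assembly of the actomyosin ring, in which anillin (*Anln*) is a scaffold and citron kinase (*Cit*) later helps turn the ring into the midbody. *Cep55* sits at the midbody and recruits the ESCRT machinery that makes the last cut. Transcripts of most of these genes build up late in the cell cycle, and a promoter element known as the cell cycle genes homology region (CHR), with the core TTTGAA, is a binding site of the MuvB complexes that repress such genes in quiescence and activate them before mitosis.

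The CHR core is shown as a description of the members' promoters, and whether it has a part in the results that follow was not tested. RefSeq promoters (GRCm38.p6, from 250 bases before to 50 bases after each transcription start) were listed for 8 of the 10 genes, without *Kif20a* and *Aurkb*. TTTGAA, searched on both strands, was present in 7 of these 8 genes and in 10 of their 11 promoters (90.9%), against 17.9% of all 32851 promoters. One window of at most 30 bases is printed for each of the 7 genes, in the direction of transcription, with the element in capitals, or its reverse complement TTCAAA where the element lies on the opposite strand.
*Ect2*, chr3:27153975-27154004, minus strand: ccgtttaccggaTTTGAAacacactcacaa
*Racgap1*, chr15:99651634-99651663, minus strand: ctggtgcgtgatTTTGAAccggatctggcg
*Kif23*, chr9:61946780-61946809, minus strand: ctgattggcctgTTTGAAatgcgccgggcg
*Prc1*, chr7:80294434-80294463, plus strand: cctctggctcggTTTGAAttccgcggggtc
*Kif20b*, chr19:34922353-34922382, plus strand: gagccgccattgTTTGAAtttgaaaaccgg
*Anln*, chr9:22389161-22389190, minus strand: tgaaattcaaatTTTGAAcggccgtggtag
*Cep55*, chr19:38054996-38055025, plus strand: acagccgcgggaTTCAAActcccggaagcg
In *Racgap1* the element began 5 bases after the annotated start, in *Kif23* 2 bases after it, in *Kif20b* 7 bases after it and in *Anln* 28 bases after it. *Prc1* held it 5 bases before the start of 1 of its 2 annotated promoters, and *Ect2* 114 bases before the start of 1 of its 2. *Anln*, *Kif20b* and *Ect2* each held a second copy. The promoter of *Cit* did not hold these letters in this window. The related TTTAAA was in none of the 8 genes, against 14.9% of all genes, and CCAAT, read on both strands, was in 4 of the 8, against 41.1% of all genes. Among the other gene lists described below, TTTGAA was in 7 of 9 other central spindle genes, 17 of 24 mitotic genes, 2 of 17 DNA replication genes, 3 of 14 ESCRT genes and none of 15 contractile ring genes. It was also in 6 of 15 regulators of mitotic transcription. Over all genes the share was 20.2%. These matches describe letters in a window and were not tested for binding.

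Each deposited value is a whole number, each library totals between 991287 and 992537, and the values are read here as TPM rounded down, which measure a transcript's share of its library corrected for its length. Values are given below as deposited. TPM keep no depth, so the counting error behind them is unknown. A value of 1 or more was listed for 12454 to 14170 genes, depending on the library. The labelled cell type was checked with marker genes: 10 fibroblast genes summed to between 2679 and 16611 in every library, highest in untreated MEFs and lowest in pre-p38i on day 7, and 8 pluripotency genes summed to 0 in both groups of MEFs. The table places *Ect2* at chr3:27097222-27153878, *Racgap1* at chr15:99620496-99651656, *Kif23* at chr9:61915905-61946774, *Prc1* at chr7:80294450-80316259, *Kif20b* at chr19:34922358-34975731 and *Kif20a* at chr18:34624624-34633265. The other genes are *Aurkb* at chr11:69045647-69051664, *Anln* at chr9:22332012-22389188, *Cit* at chr5:115845278-116008947 and *Cep55* at chr19:38055025-38074425, all in mouse build mm10 (GRCm38), and the spans cover the whole gene. For *Kif20a*, *Kif20b* and *Cep55* the span differs from that in GENCODE M21. In bulk RNA, fewer cells of a type (here, dividing cells) and less RNA per cell cannot be told apart. Reads of *Kif20a* and *Prc1* carry a further doubt. *Kif20a* overlaps *Cdc23* on the opposite strand over 979 identical bases of transcript and *Prc1* overlaps *Rccd1* over 670, and whether strand was used in counting is not given in the sources used here. *Rccd1* stood between 1 and 6 in every library and *Cdc23* between 27 and 59. *Racgap1* shares a stretch of 488 bases (98.2% identity) with a gene that the table does not list.

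*Ect2*, the exchange factor for RhoA, stood at 36 and 36 in untreated MEFs, and in DMSO at 36 and 37, 18 and 21, 22 and 26, and 35 and 37 on days 1, 3, 5 and 7. In p38i it stood at 30 and 32, 13 and 17, 15 and 17, and 20 and 20 on the same days. In pre-p38i it stood at 32 and 39, 31 and 29, 46 and 42, and 54 and 48. From day 3 on the 3 conditions did not overlap on any day, with pre-p38i highest and p38i lowest, and the pre-p38i libraries of days 5 and 7 lay above untreated MEFs.

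*Racgap1*, the GTPase-activating subunit of centralspindlin, fell from 94 and 95 in MEFs to 89 and 80 on day 1 and 42 and 43 on day 3 in DMSO, and stood at 51 and 50 on day 5 and 75 and 68 on day 7. In p38i it was 68 and 71, 37 and 36, 35 and 33, and 41 and 36 on days 1, 3, 5 and 7. In pre-p38i it was 88 and 93, 67 and 72, 95 and 99, and 111 and 108. DMSO cells thus passed through a low point on day 3, p38i cells stayed within 8 units of theirs from day 3 to day 7, and pre-p38i cells on day 7 matched p38i-treated MEFs, at 111 and 110. *Kif23*, the kinesin of the same complex, went from 76 and 64 in MEFs to 30 and 25 in DMSO on day 3 and 54 and 47 on day 7. In p38i it was 24 and 21 on day 3 and 23 and 27 on day 7, and in pre-p38i it was 42 and 36 on day 3 and 72 and 71 on day 7. Its replicates differed by more than those of *Racgap1* in MEFs, and its p38i and DMSO libraries were apart on each day.

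*Prc1*, the microtubule crosslinker of the central spindle, had the highest value of any member, 142 and 140 in p38i-treated MEFs. It stood at 117 and 117 in untreated MEFs, and in DMSO at 107 and 98, 41 and 49, 50 and 50, and 78 and 78 on days 1, 3, 5 and 7. In p38i it was 78 and 85, 37 and 38, 36 and 39, and 42 and 38, and in pre-p38i 87 and 89, 69 and 68, 95 and 98, and 112 and 113. The p38i level on day 7 was close to its level on day 3, while the other conditions had risen. *Kif20a* (MKLP2), the kinesin that brings the passenger complex to the central spindle, stood at 99 and 98 in MEFs. In DMSO it was 80 and 69, 32 and 31, 39 and 42, and 49 and 49, in p38i 54 and 57, 29 and 28, 23 and 20, and 25 and 26, and in pre-p38i 63 and 77, 47 and 50, 65 and 60, and 69 and 73. Unlike *Ect2*, it did not come back to the level of MEFs by day 7 in any condition. *Kif20b*, a related kinesin with a role in the last steps of division, was low throughout, between 3 and 17. It stood at 12 and 13 in MEFs, 9 and 9 in DMSO on day 7, 5 and 5 in p38i and 15 and 17 in pre-p38i on that day.

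*Aurkb* stood at 43 and 48 in MEFs and at 60 and 59 in p38i-treated MEFs. In DMSO it was 45 and 43, 27 and 31, 31 and 35, and 48 and 46 on days 1, 3, 5 and 7, in p38i 34 and 43, 18 and 21, 21 and 23, and 27 and 21, and in pre-p38i 50 and 49, 47 and 45, 69 and 62, and 72 and 79. The pre-p38i libraries lay above both other conditions on every day, and on day 1 p38i overlapped DMSO at the value of 43.

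Of the genes of the ring and midbody, *Anln* stood at 94 and 99 in MEFs and at 132 and 111 in DMSO on day 1, with no overlap between the 2. It then stood at 50 and 58, 55 and 70, and 82 and 72 on days 3, 5 and 7. In p38i it was 86 and 92, 36 and 39, 37 and 35, and 38 and 39, and in pre-p38i 118 and 128, 79 and 71, 98 and 95, and 110 and 95. The 2 DMSO libraries of day 1 and of day 5 were further apart than those of p38i on the same days. *Cit* was low, between 3 and 18, and had the widest range, its highest group mean being 5.33 times its lowest. It stood at 12 and 7 in MEFs, 9 and 10 in DMSO on day 7, 5 and 4 in p38i and 18 and 14 in pre-p38i. *Cep55* stood at 18 and 23 in MEFs, and at 27 and 21, 9 and 10, 14 and 12, and 13 and 14 in DMSO. In p38i it was 16 and 17, 9 and 8, 5 and 7, and 7 and 7, and in pre-p38i 19 and 21, 16 and 19, 27 and 21, and 18 and 16. It was the only member whose pre-p38i level on day 7 lay below that of day 5.

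**Figure D1:**
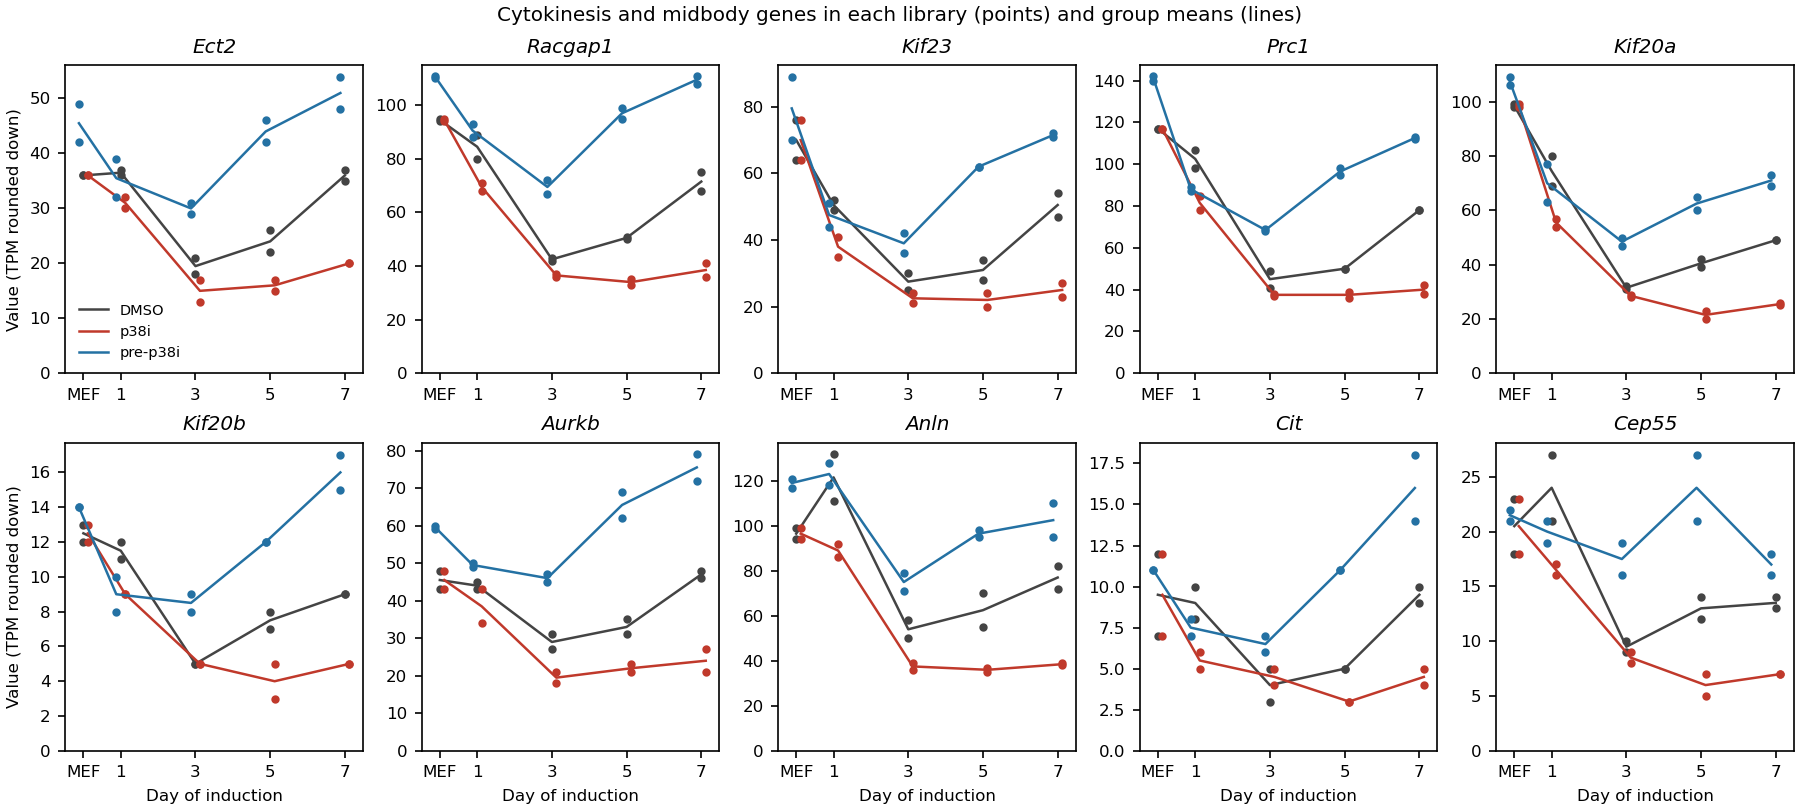
Deposited values (read as TPM rounded down, linear axes from 0) of the 10 genes against day of induction. Points are single libraries and lines join the means of 2 libraries in DMSO, p38i and pre-p38i; the DMSO and p38i lines are drawn from untreated MEFs and the pre-p38i line from p38i-treated MEFs, and the points of the 3 conditions are shifted sideways so that they can be seen. On day 7 the 3 conditions stand apart in every panel, with pre-p38i at the top and p38i at the bottom. How many of all genes do so was not counted.

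Over all 14 groups the highest mean was 3.25 times (*Racgap1*) to 5.33 times (*Cit*) the lowest. The lowest mean fell in p38i on day 5 for 7 genes and in p38i on day 3 for *Ect2* and *Aurkb*, and for *Prc1* it was shared by both of these groups, at 37.5. The highest was in p38i-treated MEFs for 4 genes (*Racgap1*, *Kif20a*, *Kif23* and *Prc1*), in pre-p38i on day 7 for 4 (*Ect2*, *Kif20b*, *Cit* and *Aurkb*) and in pre-p38i on day 1 for *Anln*, and for *Cep55* it was shared by DMSO day 1 and pre-p38i day 5, each at 27 and 21. When the 14 groups were put in order of their means, the 2 groups of a neighbouring pair did not overlap in 9 of 13 pairs for *Kif20a*, 8 for *Prc1*, 7 for *Racgap1*, 5 for *Anln*, 4 each for *Ect2*, *Kif20b*, *Kif23* and *Aurkb*, 3 for *Cep55* and 1 for *Cit*. Most neighbours thus overlapped for every gene but *Kif20a*, *Prc1* and *Racgap1*. The group with the highest mean overlapped the next one for *Anln*, *Ect2*, *Racgap1* and *Kif23*.

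In DMSO the members fell together between day 1 and day 3. Differences are given from here on as log2 fold changes of value + 1, which understate the change of low genes such as *Kif20b* and *Cit*, and a gene is called when its Benjamini-Hochberg adjusted p from limma, over the 13230 genes tested, is under 0.05. All 10 members were called lower on day 3 than on day 1, against 24.0% of the genes tested, with a median log2 fold change of -1.04 beside -0.01 for all genes. The fall was largest for *Cep55*, at -1.24 (SE 0.16, limma adjusted p = 2.29e-06), followed by *Kif20a*, at -1.21 (SE 0.09, limma adjusted p = 9.42e-10), and smallest for *Aurkb*, at -0.59 (SE 0.12, limma adjusted p = 0.000398). No library of day 3 overlapped one of day 1 for any of them, though the share of all genes without overlap was not counted. The calls held in every alternative for 9 genes, and *Cit* lost its call when only the 2 groups compared were fitted (limma adjusted p = 0.101).

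The step before it was mixed. From untreated MEFs to DMSO on day 1, *Anln* was called higher, at 0.32 (SE 0.11, limma adjusted p = 0.0145), against 36.6% of the genes tested. *Racgap1*, *Kif20a*, *Kif23* and *Prc1* were called lower, against 18.9%, with *Kif23* at -0.46 (SE 0.14, limma adjusted p = 0.00847). Quantile normalization changed these shares of all genes to 25.6% called higher and 28.4% called lower, moved the median of all genes from 0.14 to -0.07 and turned *Ect2*, which was not called, from 0.02 to -0.12. None of the 5 calls was made when only these 2 groups were fitted, and the number of members called was 1 without MEF replicate 1, 3 without MEF replicate 2 and 2 without DMSO day 1 replicate 2. From p38i-treated MEFs to day 1 of pre-p38i, 6 members (*Ect2*, *Racgap1*, *Kif20a*, *Kif20b*, *Kif23* and *Prc1*) were called lower, against 20.7% of the genes, with a median of the members of -0.43 beside 0.09 for all genes, or -0.08 for all genes after quantile normalization, when 29.0% of the genes were called lower.

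After day 3 the members rose again in DMSO. All 10 were called higher on day 7 than on day 3, against 23.4% of the genes tested, with a median of 0.74 beside 0.02 for all genes, from 0.47 for *Cep55* (SE 0.16, limma adjusted p = 0.0214) to 1.10 for *Cit* (SE 0.21, limma adjusted p = 0.000307). In p38i only *Ect2* was called between the same days, at 0.40 (SE 0.12, limma adjusted p = 0.0166), against 21.8% of the genes called higher (13.3% after quantile normalization), and the median of the members was 0.06 beside 0.11 for all genes. That call was lost in 5 of 10 alternatives: with only these 2 groups fitted, after quantile normalization, and without p38i day 3 replicate 1, p38i day 7 replicate 1 or p38i day 7 replicate 2. Other members were called in 2 of these settings, *Kif20a* and *Cep55* as lower after quantile normalization and *Aurkb* as higher without p38i day 7 replicate 2. In pre-p38i, 9 of the 10 were called higher, against 25.6%, with a median of 0.70 beside 0.02 for all genes, and *Cep55* stood at -0.04 (SE 0.16, limma adjusted p = 0.866). These comparisons of day 7 with day 3 were added after the levels had been seen. Of the single steps, 3 members (*Racgap1*, *Kif20a* and *Kif20b*) were called higher on day 5 than on day 3 in DMSO, against 13.8% of the genes (after quantile normalization 1 member, against 9.76%), and 8, all but *Kif20b* and *Cep55*, were called higher on day 7 than on day 5, against 10.3%. The first of these counts was 1 without DMSO day 3 replicate 1 and 0 without DMSO day 5 replicate 2.

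Before induction the inhibitor went with slightly higher levels. The means of all 10 members were higher in p38i-treated than in untreated MEFs, and 3 members were called, against 9.73% of the genes called higher. The libraries of the 2 groups overlapped for *Kif23*, *Cit* and *Cep55*. The log2 fold change of *Cit* turned to -0.12 without MEF replicate 2, and that of *Cep55* to -0.093 without MEF replicate 1. *Racgap1*, at 111 and 110 against 94 and 95, was higher by 0.22 (SE 0.07, limma adjusted p = 0.026). *Prc1*, at 142 and 140 against 117 and 117, was higher by 0.27 (SE 0.07, limma adjusted p = 0.0121), and *Aurkb*, at 60 and 59 against 43 and 48, by 0.38 (SE 0.12, limma adjusted p = 0.0288). The median of the members was 0.23 beside 0.00 for all genes. These calls rest on all 4 libraries: with any library of either group left out, 0 members were called, or 1, *Aurkb*, without MEF replicate 2. Cell type markers also differed between the 2 groups of MEFs. Of 11 macrophage genes 6 were called lower, against 8.15% of all genes, and none higher. They summed to 232 and 235 against 335 and 321 in untreated MEFs. Of 10 fibroblast genes 5 were called lower and none higher, with sums of 12332 and 12507 against 16611 and 15791. Their part in the higher levels of the members was not tested.

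During induction the inhibitor went with lower levels, and the median difference was largest on day 7. On day 1 of p38i 5 members were called lower than in DMSO, against 12.6% of the genes tested (6.89% after quantile normalization): *Anln* at -0.44, *Racgap1* at -0.28, *Kif20a* at -0.41, *Prc1* at -0.33 and *Cep55* at -0.50. On day 3 again 5 were called lower, against 16.2% (after quantile normalization 2 members, against 10.6%), but not the same 5: *Anln* at -0.51, *Ect2* at -0.37, *Racgap1* at -0.21, *Prc1* at -0.25 and *Aurkb* at -0.55. The members had medians of -0.37 on day 1 and -0.23 on day 3, beside -0.08 for all genes on both days. On day 3 the libraries of *Kif20b*, all at 5, did not differ, and *Cit*, at 4 and 5 against 5 and 3, had a log2 fold change of 0.16. These counts of 5 rest on single libraries and on the shared spread. On day 1 the count was 0 without DMSO day 1 replicate 1 and 1 without p38i day 1 replicate 1, on day 3 it was 2 without DMSO day 3 replicate 2 or without p38i day 3 replicate 1, and on both days it was 0 when only the 2 groups were fitted.

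On day 5 of p38i all 10 members were called lower than in DMSO, against 18.7% of the genes (13.1% after quantile normalization), with a median of -0.57 beside -0.08 for all genes. *Cep55*, at 5 and 7 against 14 and 12, was lowest at -1.01 (SE 0.16, limma adjusted p = 7.94e-05), followed by *Kif20a*, at 23 and 20 against 39 and 42, at -0.89 (SE 0.09, limma adjusted p = 3.63e-07). *Prc1* had the smallest change, at -0.41 (SE 0.07, limma adjusted p = 0.000256). No p38i library overlapped a DMSO library, and the share of all genes without overlap was not counted. With only the 2 groups fitted 3 members were called. *Cit*, at 3 and 3 against 5 and 5, was lost in 7 of 10 alternatives.

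On day 7 all 10 were again called lower in p38i, against 17.6% of the genes, and their changes lay within a narrow band, from -0.99 for *Kif23* (SE 0.14, limma adjusted p = 1.83e-05) to -0.74 for *Kif20b* (SE 0.15, limma adjusted p = 0.000728), with a median of -0.93 beside 0.00 for all genes. In folds of value + 1, the members were between 1.67 and 1.98 times lower than in DMSO. *Prc1*, at 42 and 38 against 78 and 78, fell by 0.95 on the log2 scale (SE 0.07, limma adjusted p = 6.64e-09), and *Racgap1*, at 41 and 36 against 75 and 68, had the next smallest p, at -0.88 (SE 0.07, limma adjusted p = 9.94e-09). Every p38i library lay below every DMSO library for each gene, and the share of all genes set apart in this way was not counted. With a library left out, all 10 calls held, and with only these 2 groups fitted the call of *Aurkb* was lost (limma adjusted p = 0.0512). *Cdc23*, the overlapping partner of *Kif20a*, fell too, by 0.61 on the log2 scale (limma adjusted p = 0.000467).

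The difference between p38i and DMSO was larger on day 7 than on day 1 for 7 members by the test of that difference, against 7.55% of genes with a lower one: *Anln*, *Ect2*, *Racgap1*, *Kif20a*, *Kif23*, *Prc1* and *Aurkb*. It changed by -0.75 for *Aurkb* (SE 0.17, limma adjusted p = 0.00284) and by -0.60 for *Racgap1* (SE 0.10, limma adjusted p = 0.000165). For *Kif20b*, *Cit* and *Cep55* it was also negative, at -0.42, -0.32 and -0.35, and did not pass. The count was 4 without p38i day 1 replicate 2.

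Pre-treatment went with the opposite sign from day 3 on. On day 1 of pre-p38i no member was called different from DMSO by limma, against 11.6% of the genes, and the members lay between -0.33 (*Kif20b*) and 0.17 (*Aurkb*). At an unadjusted p under 0.05 were *Kif20b* and *Prc1*, the latter at -0.22 (SE 0.07, limma adjusted p = 0.0537), and *Prc1* was called when only genes with a mean of at least 5 were tested. By day 3 all 10 were called higher than in DMSO, against 13.8% (9.99% after quantile normalization), with a median of 0.61 beside 0.07 for all genes, from 0.47 for *Anln* (SE 0.11, limma adjusted p = 0.00397) to 0.81 for *Cep55* (SE 0.16, limma adjusted p = 0.000997). On day 5 all 10 were again called higher, against 14.3%, with a median of 0.89 beside 0.04 for all genes: *Kif23*, at 62 and 62 against 28 and 34, was higher by 0.98 (SE 0.14, limma adjusted p = 2.84e-05) and *Racgap1*, at 95 and 99 against 51 and 50, by 0.93 (SE 0.07, limma adjusted p = 7.3e-09). In folds of value + 1 the members were 1.53 to 2.00 times higher on day 5. With only the groups compared fitted, 2 members were called on day 3 and 6 on day 5, and *Cit* lost its day 3 call in 7 of 10 alternatives.

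On day 7 of pre-p38i 9 members were called higher than in DMSO, against 15.4% of the genes, with a median of 0.52 beside 0.05 for all genes. *Kif20b*, at 15 and 17 against 9 and 9, had the largest change, 0.76 (SE 0.15, limma adjusted p = 0.000648). *Cep55*, at 18 and 16 against 13 and 14, was the exception, at 0.31 (SE 0.16, limma adjusted p = 0.148), though its groups did not overlap. The count was 5 without pre-p38i day 7 replicate 1 and 5 with only these 2 groups fitted. The difference between pre-p38i and DMSO was higher on day 7 than on day 1 for 8 members, all but *Anln* and *Cep55*, against 7.25% of genes, and was largest for *Kif20b*, at 1.09 (SE 0.21, limma adjusted p = 0.00119). That count was 4 without DMSO day 1 replicate 1, DMSO day 7 replicate 2, pre-p38i day 1 replicate 1 or pre-p38i day 7 replicate 1, and 5 without DMSO day 7 replicate 1.

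The p38i and pre-p38i comparisons share their DMSO libraries, so the 2 conditions were also set against each other. On day 1 4 members (*Anln*, *Racgap1*, *Kif20a* and *Aurkb*) were called lower in p38i than in pre-p38i, against 19.9% of the genes (13.5% after quantile normalization). On day 3 the call was made for 9, all but *Cit*, against 31.4%, on day 5 for all 10, against 31.1%, and on day 7 for all 10, against 29.5%. The medians of the members were -0.32, -0.88, -1.47 and -1.48 on the 4 days, beside -0.08, -0.16, -0.12 and -0.05 for all genes. On day 5 *Cep55*, at 5 and 7 against 27 and 21, was lower by 1.84 on the log2 scale (SE 0.16, limma adjusted p = 1.34e-08), the largest difference of a member in any of these comparisons. On day 7 *Aurkb*, at 27 and 21 against 72 and 79, was at -1.62 (SE 0.12, limma adjusted p = 7.04e-10) and *Racgap1*, at 41 and 36 against 111 and 108, at -1.49 (SE 0.07, limma adjusted p = 9.46e-13). The 20 calls of days 5 and 7 held in every alternative. Quantile normalization moved the median of all genes on day 3 from -0.16 to 0.05 and on day 5 from -0.12 to 0.02, and the shares of genes called lower to 18.2% and 22.5%. The count of day 1 was 2 without p38i day 1 replicate 1 and without pre-p38i day 1 replicate 2.

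**Figure D2:**
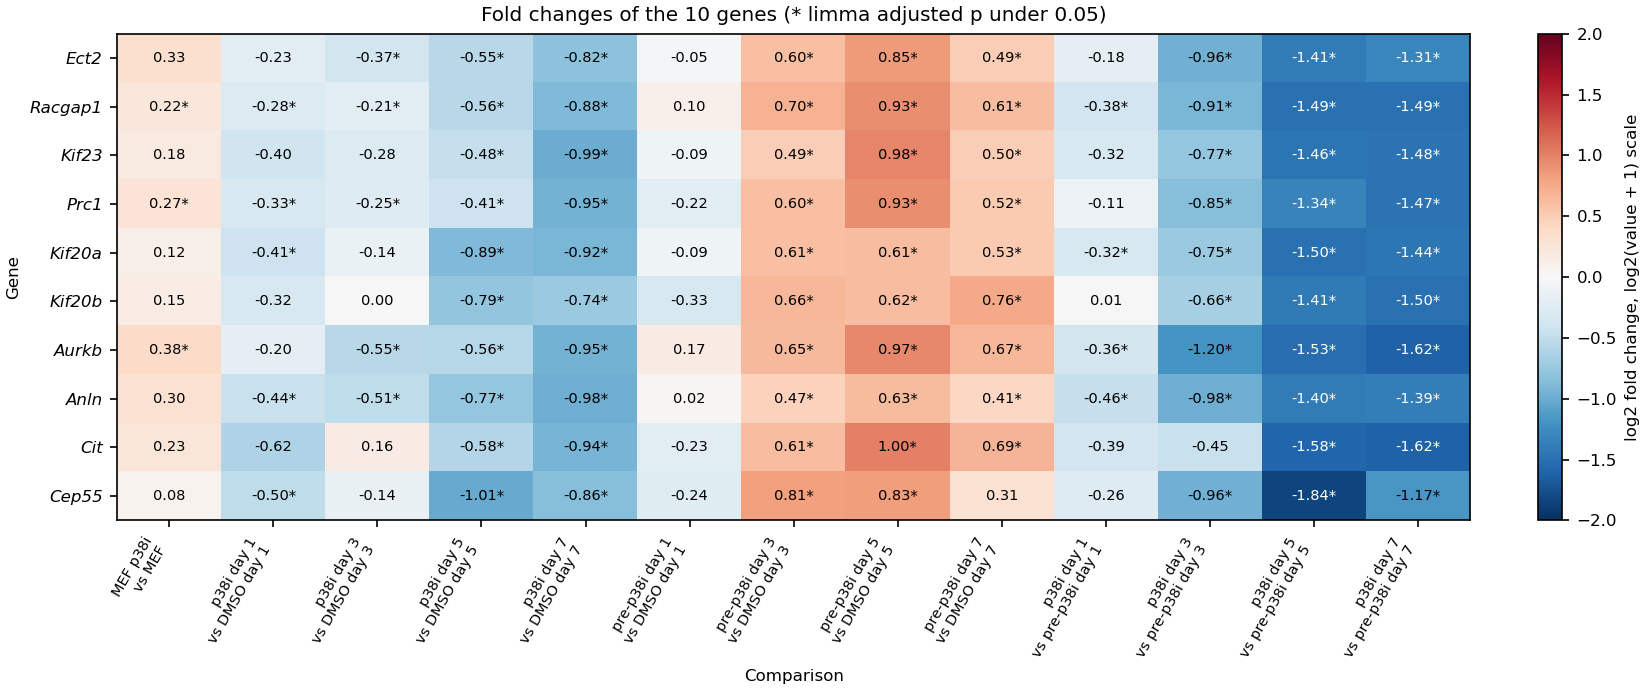
Log2 fold changes of value + 1 for the 10 genes (vertical axis) in 13 comparisons (horizontal axis), with the first group named over the second. Red is higher and blue lower in the first group, and a star marks a limma adjusted p under 0.05. The columns of p38i against DMSO are paler on day 3 than on day 1 for 7 genes and darkest overall on day 7, with medians of -0.37, -0.23, -0.57 and -0.93, the pre-p38i columns are red from day 3 and the columns of p38i against pre-p38i are darkest on days 5 and 7.

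Other parts of the cell division programme moved alongside these genes, and other parts of the cytokinesis machinery had calls in both directions. Of 28 mitotic genes outside cytokinesis, 28 were called lower in p38i on day 7 than in DMSO, with a median of -0.98, and 28 were called higher in pre-p38i both on day 5 (median 0.85) and on day 7 (median 0.61). Of 10 other genes of the passenger complex, central spindle and midbody, 9 were called lower in p38i on day 7 (median -0.83) and 10 higher in pre-p38i on day 7 (median 0.63). *Plk1*, the mitotic kinase that acts on the central spindle, stood at 38 and 35 in p38i against 83 and 84 in DMSO, and survivin (*Birc5*), a passenger subunit, at 48 and 38 against 89 and 86. Of 22 DNA replication genes 21 were called lower in p38i on day 7 (median -0.90) and none higher. In pre-p38i 20 of them were called higher on day 5 (median 0.73) and 16 on day 7 (median 0.44), and none lower on either day. In MEFs treated with p38i, 16 of the 28 mitotic genes (median 0.29) and 10 of the 22 replication genes (median 0.27) were called higher. The share of all genes called higher there was 9.73%, and none of either list was called lower.

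The mean log2 level of the 10 members stayed 0.10 to 0.44 below that of the 28 mitotic genes in each of the 28 libraries. Over the libraries, the genes outside the list most like the mean scaled profile of the members, among 10656 genes with a mean of at least 5, were *Plk1* (Pearson r = 0.987), *Kif2c* (0.985), *Mcm4* (0.983), *Ccna2* (0.983), *Gm10184* (0.983), *Cdca8* (0.981), *Rrm2* (0.980) and *Nuf2* (0.979). Between members, r over the 28 libraries ran from 0.744 for *Cit* and *Cep55* to 0.978 for *Racgap1* and *Prc1*, with a median of 0.911 over 45 pairs. These r describe groups of 2 libraries each that share their condition and day, and carry no test.

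The RhoA and contractile ring genes, most of which have roles in the cytoskeleton outside division, went in both directions. Of 17 tested, 6 were called higher and 4 lower in p38i on day 7, against 16.5% and 17.6% of all genes, with a median of -0.01. In pre-p38i on day 7, 1 was called higher and 7 lower, against 15.4% and 14.5%, with a median of -0.08. *Diaph3*, a formin that nucleates ring actin, was the ring gene that moved as the members did, at 10 and 12 in p38i against 18 and 18 in DMSO and at 27 and 23 in pre-p38i, with log2 fold changes of -0.67 (SE 0.11, limma adjusted p = 7.95e-05) and 0.45 (SE 0.11, limma adjusted p = 0.00372). It was named by the rule for the largest changes of a list, and that it moved as the members did was seen afterwards. *Rhoc* went the other way, with 400 and 425 in p38i and 151 and 160 in pre-p38i against 262 and 274 in DMSO. Of the 8 septins, filament proteins of the ring and midbody, 3 were called higher and none lower in p38i on day 7. The shares of all genes were 16.5% and 17.6%. *Sept5* had the largest rise, at 45 and 53 against 32 and 33. In pre-p38i on day 7 septins were called in both directions, with *Sept10* at 0.47, *Sept11* at -0.18 and *Sept5* at -0.86.

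The genes of ESCRT-III and abscission act downstream of *Cep55* and serve many other membranes. In p38i on day 7, 6 of 18 were called higher, against 16.5% of all genes, and none lower, with a median of 0.14 beside 0.00 for all genes and -0.93 for the members, and their log2 fold changes lay between -0.07 and 0.37. *Pdcd6ip* (ALIX), which *Cep55* recruits to the midbody, stood at 149 and 146 against 112 and 116 in DMSO, higher by 0.37 (SE 0.06, limma adjusted p = 4.84e-05). In pre-p38i on day 5 none was called higher and 1 lower, against 14.3% and 11.3% of all genes. On day 7, 1 was called higher and 3 lower, against 15.4% and 14.5%. Among these 3 was *Chmp4c*, a subunit with a part in the abscission checkpoint, at 12 and 12 against 19 and 20. *Mitd1*, a binding partner of ESCRT-III at the midbody, was higher in pre-p38i on day 7, at 41 and 41 against 32 and 32 (limma adjusted p = 0.0162).

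**Figure D3:**
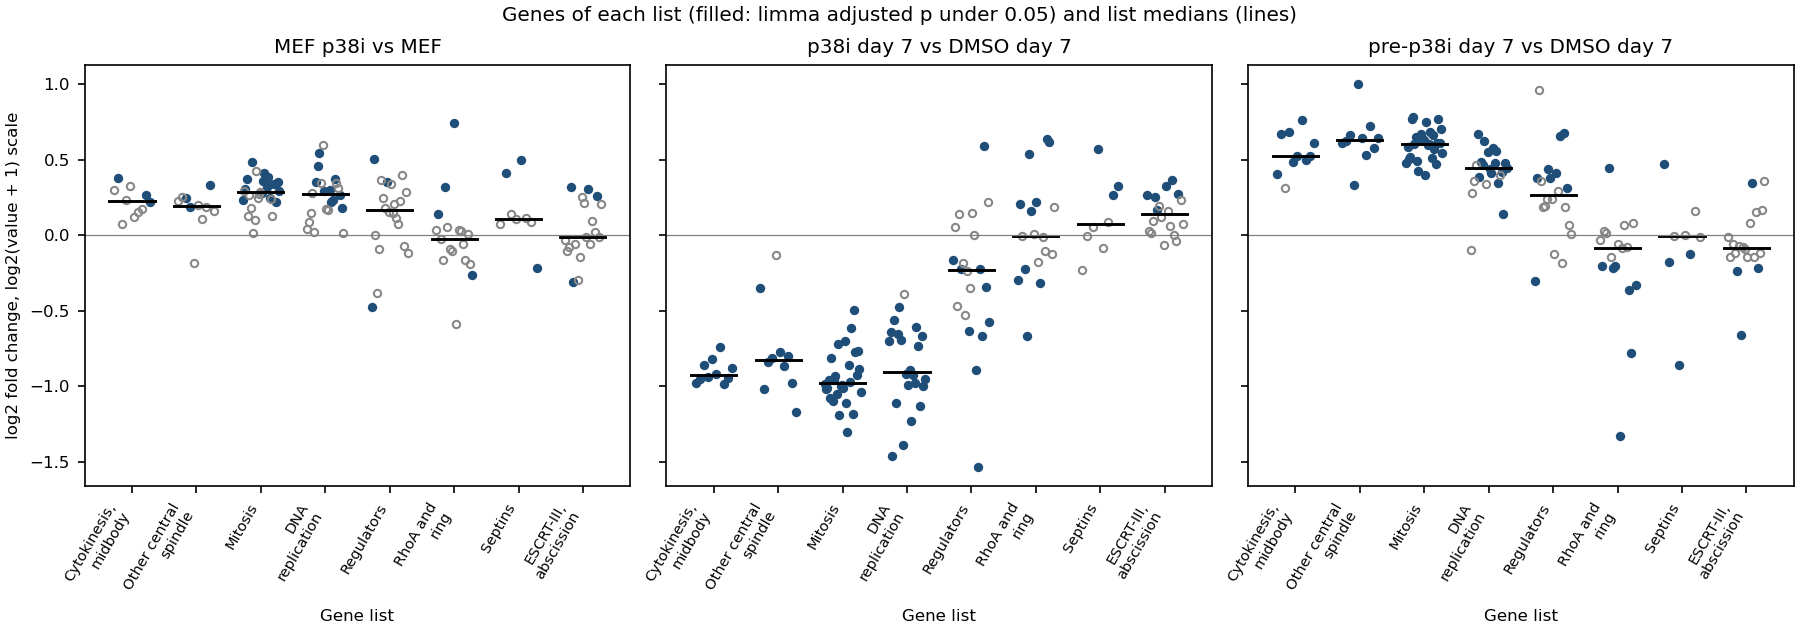
Log2 fold changes of value + 1 for each tested gene of 8 lists (horizontal axis) in 3 comparisons. Filled points have a limma adjusted p under 0.05, open points do not, and bars are list medians. The cytokinesis, other central spindle, mitotic and replication lists lie below 0 in p38i and, apart from the replication gene *Ccne1* at -0.10, above 0 in pre-p38i on day 7, while the ring, septin and ESCRT-III lists straddle 0.

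Among 20 regulators of mitotic transcription, 9 were called lower and 1 higher in p38i on day 7, against 17.6% and 16.5% of all genes. *Mybl2* (B-Myb), which joins MuvB on CHR promoters, had the largest fall, from 46 and 44 in DMSO to 17 and 13, at -1.53 (SE 0.13, limma adjusted p = 3.58e-08). *Lin9*, a MuvB subunit, stood at 6 and 6 against 12 and 12. *Rbl2* (p130), a pocket protein of the repressive form of the complex, was the gene that rose, at 15 and 16 against 9 and 11 (0.59, SE 0.14, limma adjusted p = 0.00339). *Rbl1* (p107), also a pocket protein, was called lower in p38i on day 7, at -0.67. In pre-p38i on day 5, *Mybl2* stood at 47 and 40 against 21 and 25, and *Rbl1* at 24 and 24 against 12 and 12. *Cdkn1a* (p21), an inhibitor of cyclin-dependent kinases, stood at 275 and 267 in p38i-treated MEFs against 384 and 370 in untreated ones, at -0.47 (SE 0.04, limma adjusted p = 2.49e-07), and at 825 and 822 in pre-p38i on day 5 against 1027 and 1033 in DMSO, at -0.32 (SE 0.04, limma adjusted p = 2.05e-05). On day 7 *Cdkn1a* was called lower both in p38i, where the members were lower, and in pre-p38i, with log2 fold changes of -0.16 and -0.30. Whether these genes have a part in the changes of the members was not tested.

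**Figure D4:**
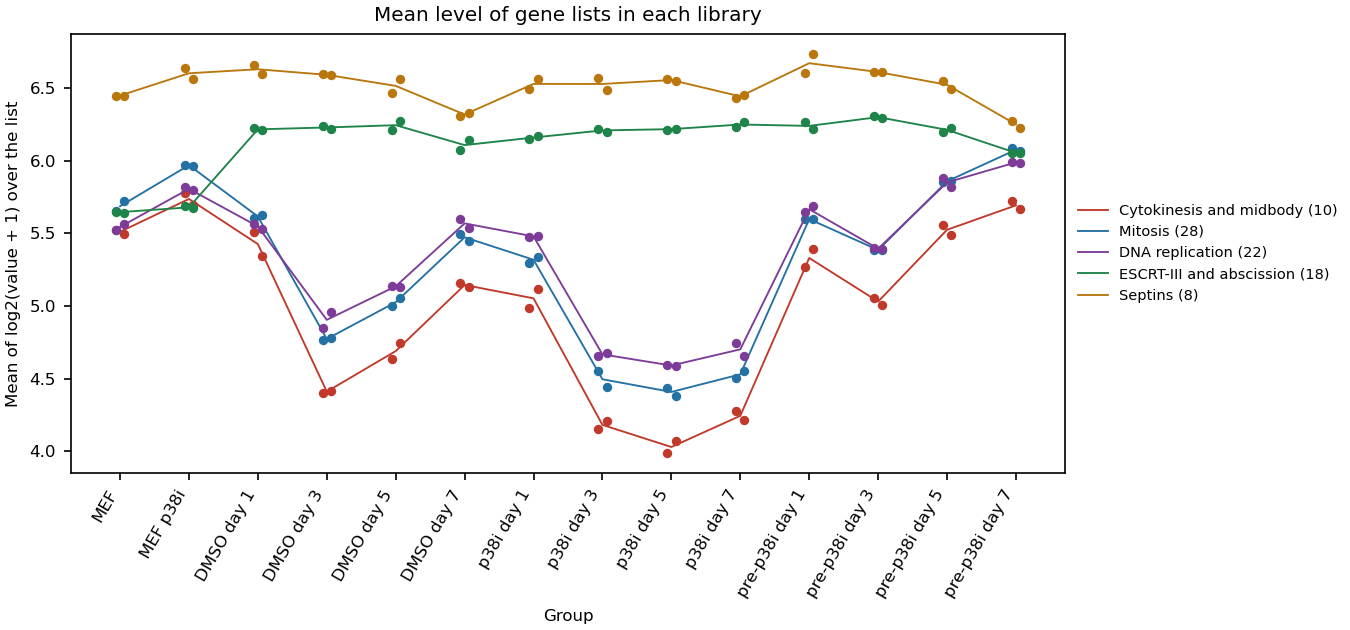
Mean of log2(value + 1) over the genes of 5 lists (vertical axis) in the 14 groups (horizontal axis). Each point is 1 library and lines join the means of the 2 libraries of neighbouring groups, only to guide the eye. The cytokinesis, mitotic and replication lists share their rises and dips over the groups, with their lowest values in p38i on days 3 to 7, while the ESCRT-III and septin lists do not dip there.

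Markers of other cell types moved with the conditions too. On day 7 the 8 pluripotency genes summed to 81 and 92 in DMSO, 8 and 10 in p38i and 145 and 137 in pre-p38i, and 4 epithelial genes to 433 and 420, 207 and 194, and 794 and 833. The 10 fibroblast genes summed to the least in pre-p38i on that day, at 2815 and 2679, against 3745 and 3938 in DMSO and 5114 and 5079 in p38i. Summed over 11 macrophage genes, the libraries ranged from 44 to 468 and stood on day 7 at 227 and 230 in DMSO, 238 and 210 in p38i and 56 and 44 in pre-p38i, and 4 endothelial genes summed to between 2 and 70. The part of these differences in cell make-up in the results for the 10 genes was not tested.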

How the data were processed

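RNA-seq had been carried out on 28 libraries of 14 groups, taken with their replicate numbers from the labels. Labels and methods differ on the library kit and the RNA extraction. Per the labels, the authors' processing notes name bcl2fastq, Bowtie2 2.2.5, RSEM 1.3.0 and the builds mm10 and hg38, without roles, and the authors deposited a score for each gene and library: a whole number, read from the totals as TPM rounded down. Depth is therefore unknown. A count test was therefore not used. Values were taken as log2(value + 1), 13230 genes whose mean reached 1 were kept, and a single linear model of the 14 groups was fitted in limma 3.58.1 (R 4.3.3), with moderated variances that follow a trend with the mean. Benjamini-Hochberg adjusted p-values under 0.05 were called. With 2 libraries against 2, an exact permutation test cannot give a p below 0.333. The share of all genes whose groups did not overlap was not counted. The scripts were tested on simulated data.

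Gene positions are those of GRCm38: 99.6% of identifiers are in GENCODE M21 and 92.5% have the same position there. Septins were matched by identifier, since 27 names had turned into dates. Near-identical transcripts (95% over 200 bases) were sought with BLAST 2.17.0, and plots drawn with matplotlib 3.10.9. The members and lists were chosen with earlier results of these data known. All 10 members are named, and from each other list, up to 2 called genes with the largest rise and 2 with the largest fall per comparison, where the mean reached 5 and the groups did not overlap. Alternatives were quantile normalization, a minimum mean of 5 or no minimum, a pseudocount of 0.1, the replicate number as a block, a fit of only the groups compared, and leaving out each library.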

Additional observations from a re-analysis of the deposited data

Results flagged for a closer look

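The difference between p38i and DMSO was more negative on day 7 than on day 1 for 7 members, against 7.55% of the genes. The test was a limma test of the difference between the days, with an adjusted p under 0.05. On the log2 scale it changed by -0.54 for *Anln*, -0.59 for *Ect2*, -0.60 for *Racgap1*, -0.50 for *Kif20a*, -0.58 for *Kif23*, -0.62 for *Prc1* and -0.75 for *Aurkb*. By the same test, the difference between pre-p38i and DMSO was more positive on day 7 than on day 1 for 8 members, against 7.25% of the genes. It changed by 0.53 for *Ect2*, 0.51 for *Racgap1*, 0.62 for *Kif20a*, 1.09 for *Kif20b*, 0.59 for *Kif23*, 0.74 for *Prc1*, 0.92 for *Cit* and 0.50 for *Aurkb*. Both tests use the same DMSO libraries of days 1 and 7, and both counts were lower with some single libraries left out. With 2 libraries a group, no library could be tested for standing apart from its group.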

How the results depend on the processing

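Of the values for single members, 2111 kept their direction and their side of the threshold, 227 lost a call, 16 gained one and 26 changed sign, and none of the 26 was called before or after. Of the counts of calls, 404 stayed within 1.5 times and 72 did not. The setting that moved most was the fit of only the groups compared, which estimates the spread from fewer libraries. It called 0 members in p38i against DMSO on days 1 and 3 and 3 on day 5, and 2, 6 and 5 in pre-p38i against DMSO on days 3, 5 and 7. It called 0 in DMSO day 1 against MEF, in DMSO day 5 against day 3 and in p38i day 7 against day 3, 2 in DMSO day 7 against day 5, 1 in p38i against pre-p38i on day 1, and 4 and 5 for the changes of the p38i and pre-p38i differences between days 1 and 7. Over all genes it called 904 in p38i-treated MEFs, 853, 1044, 978 and 2749 in p38i against DMSO on days 1, 3, 5 and 7, 359, 753, 1254 and 2285 in pre-p38i, 1838 in p38i against pre-p38i on day 1, 3700, 365 and 1396 for the DMSO steps to days 3, 5 and 7, and 1974 in p38i day 7 against day 3.

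Quantile normalization called 2 members in p38i on day 3, 1 in DMSO day 5 against day 3 and 2 in p38i day 7 against day 3. It also changed the balance of calls over all genes, in p38i on day 3 from 690 higher and 2143 lower to 1407 and 1407, and on day 5 from 1041 and 2473 to 1931 and 1731. The median of all genes moved from -0.08 to 0.04 on day 3 and from -0.08 to 0.03 on day 5 of p38i against DMSO, and from 0.11 to -0.04 in p38i day 7 against day 3. Values turned under it were 0.033 for *Cep55* in p38i on day 3, -0.12 for *Ect2* in DMSO day 1 against MEF, -0.050 for *Anln* in pre-p38i day 1 against p38i-treated MEFs, and, in p38i day 7 against day 3, -0.061 for *Anln*, -0.027 for *Racgap1*, -0.0051 for *Kif23* and -0.0040 for *Prc1*. A minimum mean of 5 called 1 member in pre-p38i on day 1. For the change of the pre-p38i difference, no filter called 4 members and a pseudocount of 0.1 called 5.

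With a library left out, the number of members called ran from 0 to 1 in p38i-treated MEFs, 0 to 5 and 2 to 4 in p38i on days 1 and 3, 5 to 9 in pre-p38i on day 7, 2 to 4 in p38i against pre-p38i on day 1, 1 to 4 in DMSO day 1 against MEF, 0 to 3 in DMSO day 5 against day 3, 4 to 7 and 4 to 6 for the changes of the p38i and pre-p38i differences, and 0 to 1 in p38i day 7 against day 3. Over all genes the counts ran from 1515 to 1676 in p38i-treated MEFs, 1150 to 1643 in p38i on day 1, 856 to 950 and 1568 to 2050 in pre-p38i on days 1 and 3, and 1468 to 2021 and 2136 to 2916 for the DMSO steps to days 5 and 7. The lone library of such a group is assumed to vary like the others. Uncalled log2 fold changes that crossed 0 were, in p38i-treated MEFs, *Cit* from -0.12 to 0.58 and *Cep55* from -0.093 to 0.24, and *Cit* from -0.13 to 0.45 in p38i on day 3. In pre-p38i on day 1 they were *Anln* from -0.10 to 0.15, *Ect2* from -0.18 to 0.093, *Kif20a* from -0.23 to 0.051 and *Kif23* from -0.19 to 0.015. The rest were *Kif20b* from -0.14 to 0.15 in p38i against pre-p38i on day 1, *Cit* from -0.39 to 0.31 and *Aurkb* from -0.12 to 0.032 in DMSO day 1 against MEF, *Cep55* from -0.050 to 0.16 in DMSO day 7 against day 5, *Anln* from -0.012 to 0.10 in pre-p38i day 1 against p38i-treated MEFs, *Anln* from -0.018 to 0.094 and *Racgap1* from -0.019 to 0.16 in p38i day 7 against day 3, and *Cep55* from -0.15 to 0.080 in pre-p38i day 7 against day 3.

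The values gave no sign that replicate numbers pair the libraries: the difference between replicates 1 and 2 correlated between -0.084 and 0.087 over 91 pairs of groups. Such correlations cannot show whether libraries of the same number shared a culture or a batch. With the replicate number as a block, 5, 5, 9 and 10 members were called in p38i and 0, 9, 10 and 9 in pre-p38i against DMSO on days 1, 3, 5 and 7. Apart from the settings named, the causes of these changes were not tested. Low values such as those of *Cit* and *Kif20b* are coarse, since the deposited numbers carry no decimals.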
